A study of Mus musculus with 4 samples.

Results

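Neutrophils carry their killing and digesting proteins in granules that are made one class after another while the cell matures. Primary granules are filled at the promyelocyte stage, secondary granules at the myelocyte and metamyelocyte stages, and tertiary granules later still, so the class a gene belongs to marks how far a granulocyte has come. The 10 genes described here were grouped as 3 of primary granules (Mpo, Prtn3 and Ctsg), 5 of secondary granules (Ltf, Camp, Ngp, Lcn2 and Chi3l3, now named Chil3) and 2 of tertiary granules (Mmp8 and Mmp9). This grouping, including the place of Mmp8 beside Mmp9, was not tested here. The genes were chosen by name in the deposited spot files, where 12 of 61307 probes carried 1 of these names, out of 29319 named genes.

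The series has 4 arrays of cells sorted from the bone marrow of C57BL6/J mice aged 7 weeks, and asks which genes mark the marrow niche while blood stem cells proliferate. LSK cells are lineage-negative, Sca-1-positive and c-kit-positive, the gate that holds blood stem and early progenitor cells; the other sort was of CD45-negative cells, labelled stromal or niche cells. The day 0 samples of both sorts came from healthy mice, and the day 10 samples from irradiated recipients (700 cGy) into which 30000 LSK cells had been transplanted. Donors carried the CD45.2 and recipients the CD45.1 form of the leukocyte antigen CD45, and the protocol writes CD45.1-negative where the sample names write only CD45-negative. How many mice were pooled for an array, and which antibodies made up the lineage gate, is not given in the sources used here.

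Each population and day has 1 array, so no difference below has a test or a standard error against other mice. Levels are log2 signals relative to the 75th percentile of the same array, and a difference is between the same probe on 2 arrays; a size of at least 2-fold was counted, which is not a test. The SD between repeat spots of the same probe ranged from 0.157 to 0.210 log2 units over the arrays, and it measures the technical spread of spots alone. Between 47.6% and 56.6% of the probes of an array were well above background. In sorted bulk samples, fewer cells of a type and less RNA per cell cannot be told apart. Ptprc, the gene of CD45, stood at 4.18 and 4.25 in LSK cells at day 0 and day 10 and at 3.10 and 5.58 in CD45-negative cells, well above background on all 4 arrays, so the sort named CD45-negative was not free of CD45 transcript. Kit, which the LSK gate selects, was at 5.04 and 4.65 in LSK cells and at 1.52 and 1.94 in CD45-negative cells.

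The array reads each gene through 1 or 2 probes of 60 bases. Those of Prtn3, Camp, Ngp and Ltf are shown as examples from the primary and secondary classes, and Ltf has a pair that can be set against each other.
Prtn3: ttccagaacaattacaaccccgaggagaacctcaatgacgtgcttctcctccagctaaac
Camp: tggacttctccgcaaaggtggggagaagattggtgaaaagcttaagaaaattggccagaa
Ngp: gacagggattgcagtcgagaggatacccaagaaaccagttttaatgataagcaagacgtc
Ltf, brighter probe: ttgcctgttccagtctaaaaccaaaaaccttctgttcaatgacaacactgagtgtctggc
Ltf, dimmer probe: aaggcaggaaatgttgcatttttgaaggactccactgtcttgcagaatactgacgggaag

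The primary granule genes stood apart from the secondary ones in each of the 4 comparisons. They also stood apart from the tertiary ones, except between the days in LSK cells, where Mmp9 (-0.42) lay close to Ctsg (-0.53). In both populations the secondary granule genes were higher at day 10, by a median of 1.56 log2 units in LSK cells and 1.86 in CD45-negative cells, while the measured primary granule genes were slightly lower, by medians of -0.60 and -0.47, although the latter was 2.79 when arrays were shifted by their spike-in control probes. The tertiary genes were higher at day 10 in CD45-negative cells (median 2.25). In LSK cells they went opposite ways, Mmp8 by 0.90 and Mmp9 by -0.42 (median 0.24). Primary granule genes were brighter in LSK cells than in CD45-negative cells at both days, and secondary and tertiary genes were dimmer.

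**Figure D1:**
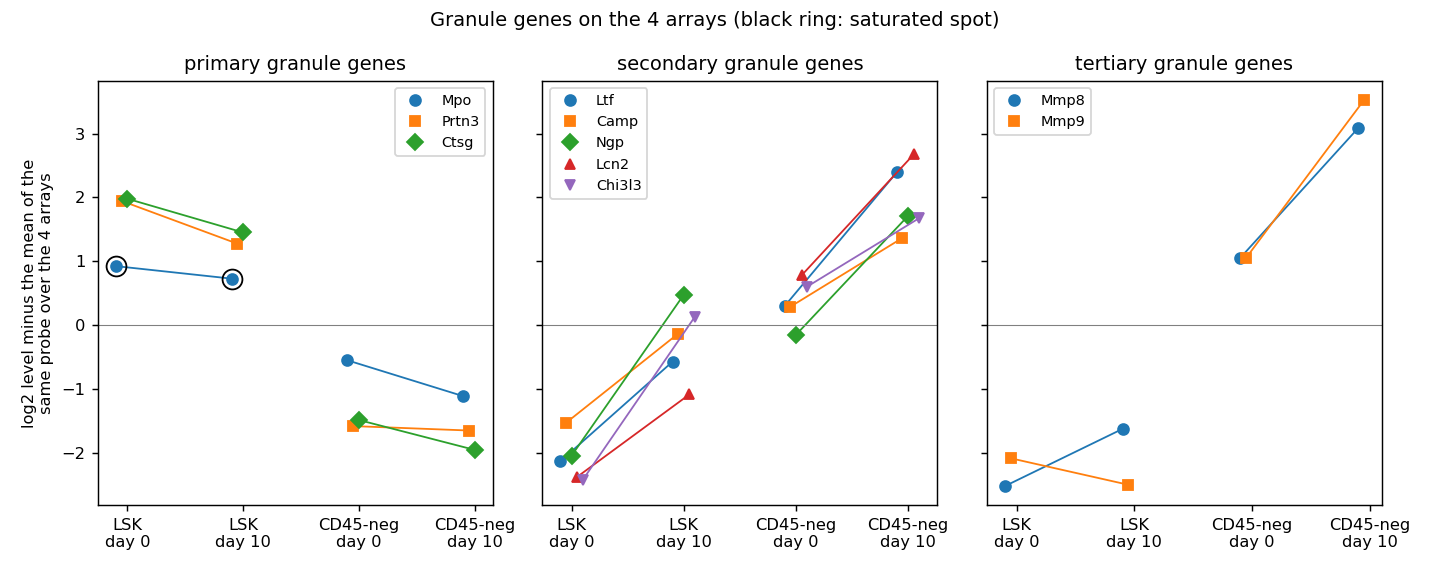
Log2 level of each granule gene on the 4 arrays, minus the mean of the same probe over the 4 arrays (y axis), in 1 panel per granule class; lines join day 0 and day 10 of a population and black rings mark saturated spots. Primary genes lie highest on the LSK arrays, all 5 secondary genes go up from day 0 to day 10 in both populations, and Mmp9 goes up in CD45-negative cells but not in LSK cells.

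Among the primary granule genes, Mpo encodes myeloperoxidase, which makes hypochlorous acid from hydrogen peroxide and chloride. Its level was 8.27 in LSK cells at day 0, 8.08 in LSK cells at day 10, 6.80 in CD45-negative cells at day 0 and 6.24 in CD45-negative cells at day 10. Both LSK spots were saturated, with 44 of 44 and 43 of 43 pixels at the limit of the scanner, so Mpo gives no difference between the days in LSK cells. In CD45-negative cells it was 1.48-fold lower at day 10.

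Prtn3 encodes proteinase 3, a serine protease of primary granules. It stood at 4.25 and 3.58 in LSK cells at day 0 and day 10, and at 0.72 and 0.65 in CD45-negative cells. The LSK levels were far above the CD45-negative ones on both days; from day 0 to day 10 Prtn3 was 1.59-fold lower in LSK cells and differed by -0.07 in CD45-negative cells, less than the spread of repeat spots.

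Ctsg, cathepsin G, is another serine protease of the same granules and lies on chromosome 14, away from Prtn3 on chromosome 10. Its levels were 7.87 and 7.34 in LSK cells and 4.41 and 3.94 in CD45-negative cells at day 0 and day 10. It was 1.44-fold lower at day 10 in LSK cells and 1.38-fold lower in CD45-negative cells. The similar size depends on the processing, since normexp background correction gave differences of -0.44 and -0.11.

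The direction of the primary genes in CD45-negative cells depends on the scaling. Under a shift by spike-in control probes, which adds 3.26 to every day 10 minus day 0 difference of the CD45-negative cells, Mpo, Prtn3 and Ctsg were higher at day 10, by 2.70, 3.19 and 2.79, and under normexp background correction Prtn3 differed by 0.017. In LSK cells Prtn3 and Ctsg were lower at day 10 under all 10 alternatives.

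The secondary granule genes begin with Ltf, lactoferrin, which binds iron and so withholds it from bacteria. Its brighter probe read 2.96 and 4.51 in LSK cells and 5.39 and 7.48 in CD45-negative cells at day 0 and day 10. Day 10 was 2.95-fold higher in LSK cells and 4.27-fold higher in CD45-negative cells. The dimmer probe gave 2.47-fold and 4.75-fold, the same direction in both populations.

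Camp encodes cathelicidin, the precursor of an antimicrobial peptide. It stood at 3.29 and 4.69 in LSK cells and at 5.11 and 6.19 in CD45-negative cells. The day 10 level was 2.63-fold higher in LSK cells and 2.11-fold higher in CD45-negative cells, and both CD45-negative levels lay above both LSK levels. Under the spike-in shift the LSK level at day 10 lay above the CD45-negative level at day 0.

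Ngp, neutrophilic granule protein, is related to the cathelicidins and cystatins. It read 2.28 and 4.80 in LSK cells and 4.17 and 6.03 in CD45-negative cells. Among the secondary and tertiary genes, Ngp alone had a LSK level at day 10 above its CD45-negative level at day 0. Under the spike-in shift Ltf, Camp and Chi3l3 had this order too. For Ngp, day 10 was at 5.73-fold the day 0 level in LSK cells and 3.64-fold in CD45-negative cells.

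Lcn2, lipocalin 2, captures bacterial siderophores. It read -0.10 and 1.19 in LSK cells and 3.05 and 4.94 in CD45-negative cells, which is 2.44-fold and 3.72-fold higher at day 10. Both CD45-negative levels lay above both LSK levels.

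Chi3l3 encodes a chitinase-like lectin, Ym1, that macrophages also make. It stood at 3.39 and 5.94 in LSK cells and at 6.41 and 7.48 in CD45-negative cells. Day 10 was 5.87-fold higher in LSK cells and 2.10-fold higher in CD45-negative cells, the same order of sizes as Camp and Ngp and the opposite from Ltf and Lcn2. Under the spike-in shift the order for Chi3l3 was reversed, with differences of 2.36 in LSK cells and 4.33 in CD45-negative cells. On the CD45-negative day 10 array 9 of 42 pixels of its spot were at the scanner's limit, so that level may read low. Chi3l3 has a near-identical neighbour, Chi3l4 (now Chil4), with no protein-coding gene between them, and the array's Chi3l4 probe also lists the Chi3l3 transcript; it gave differences of 1.26 in LSK cells and 1.34 in CD45-negative cells, and the share of either gene in these signals cannot be told apart.

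Of the 2 genes grouped here as tertiary, Mmp8 encodes neutrophil collagenase. Its levels were -0.65 and 0.25 in LSK cells and 2.92 and 4.95 in CD45-negative cells. It was 1.86-fold higher at day 10 in LSK cells, short of the 2-fold size, and 4.08-fold higher in CD45-negative cells.

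Mmp9 encodes gelatinase B, the protein for which gelatinase granules are named. Its brighter probe read -1.75 and -2.17 in LSK cells and 1.38 and 3.85 in CD45-negative cells. It was 1.33-fold lower at day 10 in LSK cells and 5.52-fold higher in CD45-negative cells, opposite directions in the sorts. The other probe gave a day difference of 3.88 in CD45-negative cells, larger than the 2.46 of the brighter probe; in LSK cells it was not well above background at day 0.

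**Figure D2:**
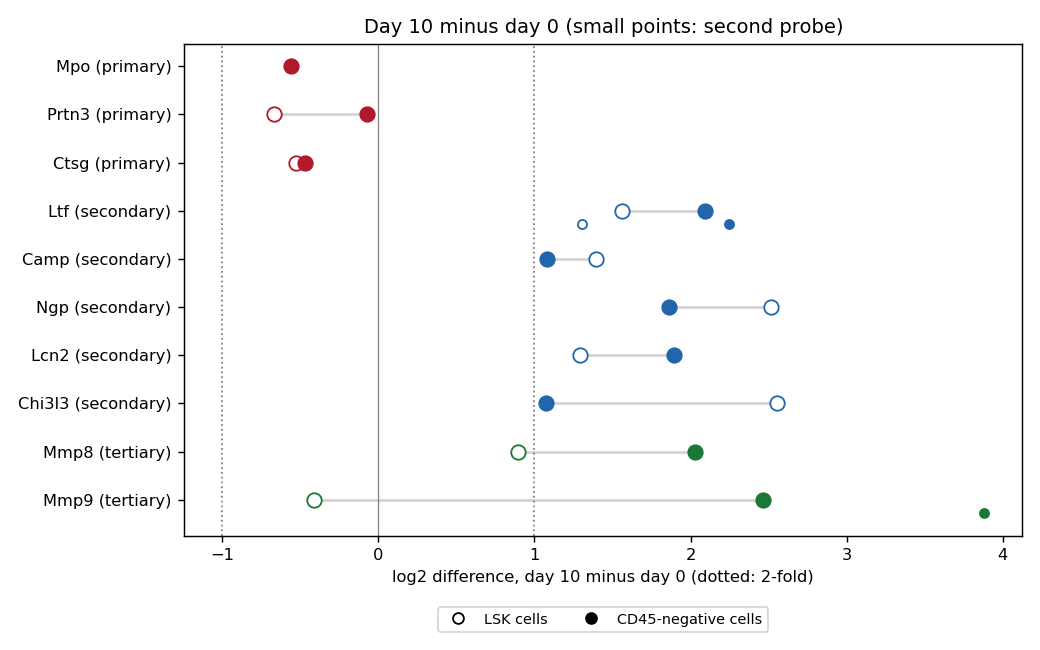
Log2 difference, day 10 minus day 0, of each granule gene (x axis) in LSK cells (open points) and CD45-negative cells (filled points); small points are the other probe of Ltf and Mmp9 where it was well above background on both arrays, dotted lines mark 2-fold, and Mpo has no LSK point because both spots were saturated. All 5 secondary genes lie past 2-fold in both populations, the primary genes lie between -0.67 and -0.07 (above 0 in CD45-negative cells under the spike-in shift), and Mmp9 lies on opposite sides of 0.

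In LSK cells, 5 of the 9 members that could be measured were at least 2-fold higher at day 10, the 5 secondary genes, against 1.46% of the 16190 genes measured on both arrays. None of the 9 was at least 2-fold lower, against 2.71% of all genes. The median over the 9 members was 1.29, beside -4.48e-05 over all genes. In CD45-negative cells, 7 of 10 members were at least 2-fold higher, all but the primary genes, against 23.7% of 14442 genes. None was at least 2-fold lower, against 17.5% of all genes. Camp (0.85) and Chi3l3 (0.84) fell short of that size when arrays were shifted by housekeeping genes. The median over the 10 members was 1.47, beside 0.19 over all genes. Of the genes past 2-fold, 35.1% were higher in LSK cells and 57.5% in CD45-negative cells; under the spike-in shift these shares were 15.8% and 99.0%, and under the housekeeping shift the share in CD45-negative cells was 44.7%.

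A shift of a whole array moves all genes alike and so leaves the distance between the classes as it is. The median secondary difference lay 2.16 log2 units above the median primary one in LSK cells and 2.33 above it in CD45-negative cells; over all settings run these gaps were 2.03 to 2.22 and 1.98 to 2.45. In both populations the lowest secondary difference exceeded the highest primary one (1.29 against -0.53, and 1.07 against -0.07). Tertiary genes lay below all secondary genes in LSK cells, at -0.42 and 0.90, and among or above them in CD45-negative cells, at 2.03 and 2.46.

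**Figure D3:**
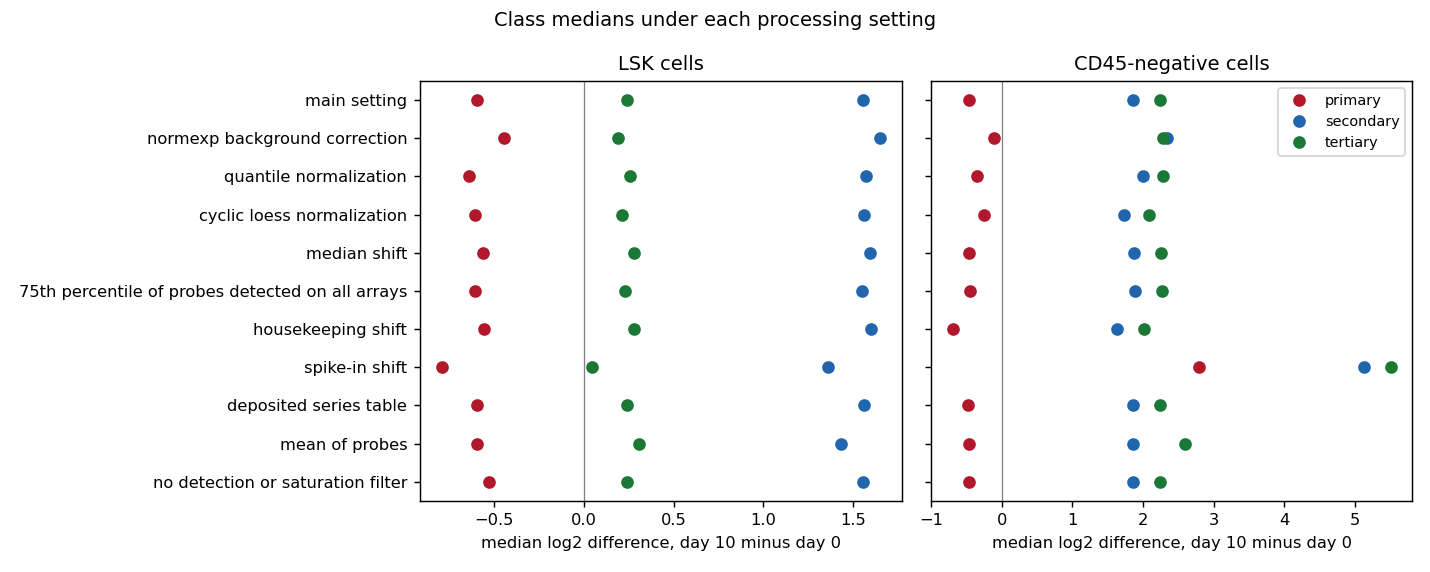
Median log2 difference, day 10 minus day 0, of the primary, secondary and tertiary granule genes (x axis) under the main setting and each of the 10 alternatives (rows), in LSK cells on the left and CD45-negative cells on the right. The order of primary below secondary holds in every row, though the rows that only shift whole arrays could not change it. The spike-in shift moves all classes of CD45-negative cells to the right, the primary median to 2.79.

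The comparison of populations shares its arrays with the comparison of days, so its values are another view of the same levels. At day 0 all 3 primary genes were at least 2-fold higher in LSK cells, against 21.9% of 14495 genes, and all 7 secondary and tertiary genes were at least 2-fold lower, against 17.7%. Mpo was at least 2.78-fold higher in LSK cells, a bound because the LSK spot was saturated, while Prtn3 was 11.5-fold higher and Ctsg higher by 3.46 log2 units. The secondary genes were lower in LSK cells by 3.52-fold for Camp, 3.71-fold for Ngp, 5.39-fold for Ltf, 8.13-fold for Chi3l3 and 8.89-fold for Lcn2. Mmp8 was 11.9-fold and Mmp9 8.80-fold lower.

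At day 10 the same 3 and 7 genes were past 2-fold, against 11.2% of 15573 genes higher and 12.8% lower in LSK cells. Mpo was at least 3.58-fold, Prtn3 7.59-fold and Ctsg 10.6-fold higher in LSK cells. Camp (2.83-fold), Ngp (2.35-fold) and Chi3l3 (2.91-fold) were closer to the CD45-negative level than at day 0, and Ltf (7.81-fold) and Lcn2 (13.5-fold) farther from it. The closer distance depends on the scaling: under the spike-in shift the differences at day 0 and day 10 were -0.06 and -3.20 for Camp, -0.13 and -2.93 for Ngp, and -1.26 and -3.24 for Chi3l3, and under normexp Camp stood at -1.495 and -1.513. The tertiary genes stood farthest apart, Mmp8 26.0-fold and Mmp9 64.7-fold lower in LSK cells. Under the spike-in shift Mpo was higher in LSK cells by 0.14 at day 10, and at day 0 only 4 of the 7 lower genes stayed past 2-fold, without Camp (-0.06), Ngp (-0.13) and Ltf (-0.67).

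**Figure D4:**
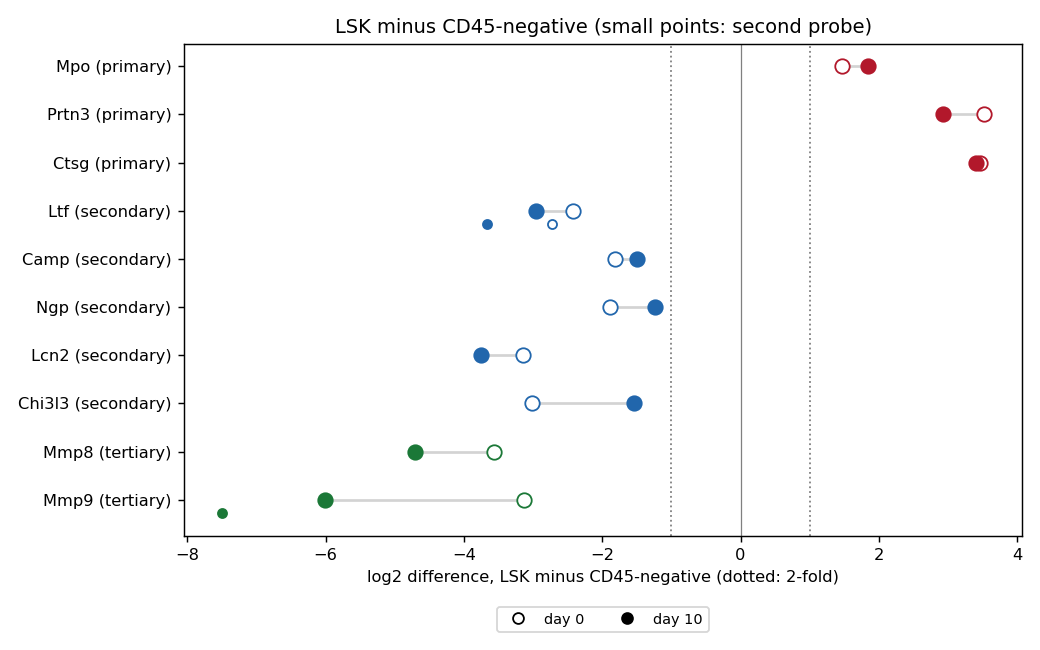
Log2 difference, LSK minus CD45-negative, of each granule gene (x axis) at day 0 (open points) and day 10 (filled points); small points are the other probe of Ltf and Mmp9 where it was well above background on both arrays, and dotted lines mark 2-fold. Primary genes lie right of 0 and secondary and tertiary genes left of it, with Mmp9 at -6.02 at day 10; the Mpo points are lower bounds.

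Other genes of the granule programme were taken from lists by class, 43 genes in all, besides the members. Their counts, and those of the cell type markers, stand against the same shares of all genes: 1.46% higher and 2.71% lower at day 10 in LSK cells, and 23.7% higher and 17.5% lower in CD45-negative cells. Elane, neutrophil elastase, a primary granule protease, lies next to Prtn3 on chromosome 10 with no protein-coding gene between them. Elane read 6.15 and 5.44 in LSK cells and 2.54 and 1.57 in CD45-negative cells, and its differences of -0.71 and -0.97 went the way of the primary members; its other probe gave -0.80 and -0.58. Of the 7 other primary granule genes measured in LSK cells, 0 were past 2-fold either way (median -0.15). The largest difference was of Lyz2, lysozyme, at 0.95 by its brighter probe and 1.11, past that size, by its other probe. Elane, Ctsc, the cathepsin C that activates the granule proteases (0.52), and Prss57, a granule serine protease (-0.36), followed. In CD45-negative cells 3 of 7 were at least 2-fold higher, Ctsc (1.56), Serpinb1a, an inhibitor of these proteases (1.26), and Srgn, the proteoglycan core that packs them (1.07), while Elane was lower. The list's median there, 0.40, was the value of Lyz2 itself, whose brighter probe was saturated at day 10 and whose other probe gave 2.31.

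Of the other secondary granule genes, 2 of the 10 measured in LSK cells were at least 2-fold higher and 0 lower (median 0.95, and 0.52 under normexp), Lrg1, a secreted leucine-rich glycoprotein (1.43), and Chil1, a chitinase-like protein of specific granules (1.23). Slc11a1, a metal transporter of phagocytes (0.99), and Retnlg, a resistin-like secreted protein (0.97), came close to that size. In CD45-negative cells 9 of 11 were at least 2-fold higher and 0 lower (median 1.86), led by Chil1 (3.15), the neutrophil surface antigen Cd177 (2.73), the integrin chain Itgam (2.32) and Slc11a1 (1.93).

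Of the other tertiary granule and secretory vesicle genes, 1 of the 7 measured in LSK cells was at least 2-fold higher and 0 lower, the phosphatase Alpl (1.55); Fpr2, a formyl peptide receptor (0.40), Adam8, a surface protease (0.36), and Anxa1, annexin A1 (-0.15), followed. The median of 0.14 became -0.052 under the spike-in shift. In CD45-negative cells 7 of 8 were at least 2-fold higher and 0 lower (median 1.999), among them Fpr2 (2.96), Fpr1 (2.60), Adam8 (2.25) and Anxa1 (2.03).

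Transcription factors and receptors that direct the neutrophil lineage were close to level in LSK cells. There 0 of 12 were past 2-fold either way (median -0.11), with Cebpa, which starts granulocyte commitment, at -0.58 (-0.02 at its other probe), Klf4 at 0.55, Spi1, which encodes PU.1, at 0.52 and Irf8, a monocyte factor, at -0.37. Cebpe, the factor required for secondary granules, differed by -0.23. In CD45-negative cells 8 of 11 were at least 2-fold higher and 0 lower (median 1.29), with Csf3r, the G-CSF receptor (2.22), Gfi1, a repressor needed for neutrophils (1.67), Stat3 (1.44) and Cebpe (1.40) ahead.

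**Figure D5:**
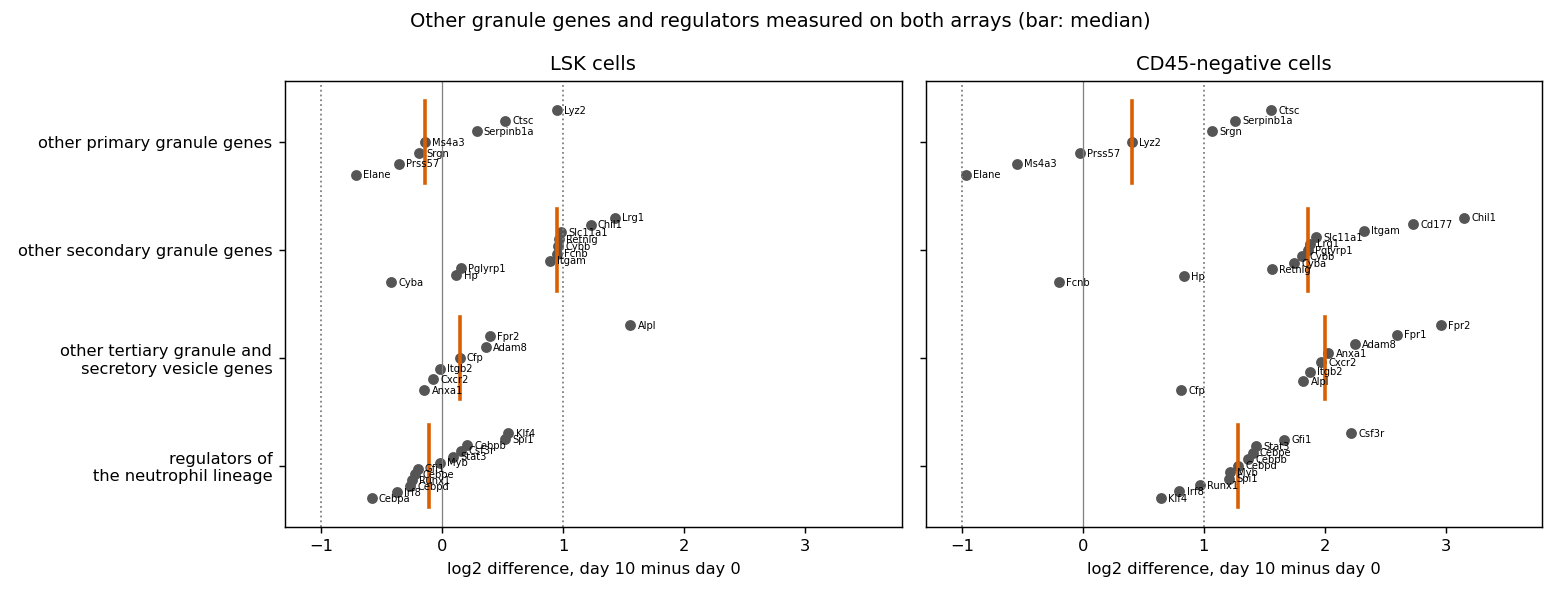
Log2 difference, day 10 minus day 0 (x axis), of the other granule genes and lineage regulators measured on both arrays, by list (rows), in LSK cells on the left and CD45-negative cells on the right; orange bars mark list medians and dotted lines 2-fold. In LSK cells only 3 genes lie past 2-fold (Lrg1, Chil1 and Alpl), while in CD45-negative cells most genes of the lower 3 lists do.

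Genes with patterns nearest to each class over the 4 arrays were found by the distance between profiles centred on their own mean, among 10338 genes measured and unsaturated on all arrays. Nearest to Prtn3 and Ctsg, the unsaturated primary members, were Muc13 (distance 0.25), Prss57 (0.28), Dock1 (0.33), Ms4a3 (0.47) and Camk2a (0.48). Nearest to the mean of the 5 secondary genes were Lrg1 (0.57), Pilra (0.60), Pla2g7 (0.61), Lrrn3 (0.65) and Tnfrsf19 (0.71). Nearest to Mmp8 and Mmp9 were Ly6g (0.44), the antigen by which mouse neutrophils are sorted, Fpr2 (0.52), Cpm (0.60), Ms4a1 (0.67), a B cell antigen, and Retnlg (0.72). Prss57 and Ms4a3 are from the list of other primary granule genes, Lrg1 from the secondary list and Fpr2 from the tertiary list. Retnlg, from the secondary list, stood beside the tertiary class. The rest were in none of the granule lists.

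The list of mature neutrophil markers shares Cxcr2, Csf3r, Fpr1 and Mmp25 with the lists above. In LSK cells 8 of its 10 were well above background at day 0 and 10 of 10 at day 10, and of the 8 measured on both arrays 1 was at least 2-fold higher, Il1b at 1.48, while Ly6g stood at -3.31 on both days. In CD45-negative cells 9 of 10 and then 10 of 10 were above background, and 7 of 8 measured were at least 2-fold higher, with Ly6g at 2.74 and Padi4, which citrullinates histones, at 2.50. The summed signal of the list, relative to the 75th percentile, was 306 and 357 in LSK cells at day 0 and day 10. In CD45-negative cells it was 936 and 458, carried by S100a8 and S100a9, whose spots were saturated on 1 and 2 of these arrays. Whether a different share of maturing neutrophils among the sorted cells accounts for the member differences was not tested.

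Markers of other cell types moved in the same samples. Of 12 monocyte and macrophage markers, 2 of 10 measured were at least 2-fold higher at day 10 in LSK cells (summed signal 152 and then 143) and 4 higher and 1 lower in CD45-negative cells (40.4 and 107), with Mrc1 not above background on any array. Eosinophil markers were lower in LSK cells, 4 of 7 by at least 2-fold (30.3 and then 14.2), while in CD45-negative cells 2 of 3 measured were at least 2-fold higher, Prg2 at 1.74 and Prg3 at 1.49 (1.27 and then 3.16), with Epx below background at both days. In CD45-negative cells 7 of 7 erythroid markers were at least 2-fold lower (1774 and then 272), 8 of 8 stromal markers were lower (143 and then 14.2; their median was 0.079 under the spike-in shift), and 5 of 5 T and NK cell markers were higher (5.83 and then 176). Plasma cell markers were higher in CD45-negative cells, 4 of 4 by at least 2-fold (3.83 and then 214), as were 5 of 6 B cell markers (123 and then 248) and 1 of 3 stem and progenitor markers (8.33 and then 17.5). In LSK cells 2 of 5 plasma cell markers were at least 2-fold lower and 0 higher (203 and then 11.3), and 3 of 9 T and NK cell markers were lower and 1 higher (98.4 and then 80.9). Most of each plasma cell sum came from Jchain, at levels of 7.60 and 2.96 in LSK cells and 1.33 and 7.62 in CD45-negative cells. In CD45-negative cells the erythroid sum at day 0 includes saturated spots of Hba-a1, Alas2 and Slc4a1, and the B cell sum at day 10 a saturated spot of Cd79b. Of the basophil and mast cell markers, 4 of 8 were at least 2-fold lower in LSK cells (297 and then 99.6), and 5 of 5 were at least 2-fold higher in CD45-negative cells (5.71 and then 25.7). The part of these shifts in the granule gene differences was not tested.

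Promoter sequences in RefSeq (build GRCm38.p6, 250 bases before to 50 after the start of the gene) were found for 9 of the 10 members, Mmp9 being the exception. That build is not the mm9 of the array design. They were searched on both strands for 6 short motifs. A form of the PU.1 site, GAGGAAG, was in all 3 primary promoters, in 1 of 5 secondary promoters (Lcn2) and in that of Mmp8, and 13.6% of 32851 promoters of this length held it. A form of the C/EBP site, TTGCNNAA, was in 0 of 3 primary promoters, in 3 of 5 secondary promoters (Ltf, Ngp and Lcn2) and in that of Mmp8, against 10.8% of all promoters. The MYB form AACNGCC was in 3 member promoters (1 of 3 primary and 2 of 5 secondary), against 12.1% of all promoters. The TATA box, TATAAA, was in 3 of them (1 of 3 primary, 1 of 5 secondary and Mmp8), against 13.6%. The CCAAT box was in 4, against 37.4%, with the same split by class as the C/EBP form: 0 of 3 primary, 3 of 5 secondary and Mmp8. The GATA form AGATAA was in 2 (0 of 3 primary and 2 of 5 secondary), against 11.2%. These counts describe letters in a window and say nothing of binding. The promoters of the primary members and of the secondary members with a C/EBP form are shown over the 250 bases before the start, with matches to the C/EBP and PU.1 forms, on either strand, in capitals; in Ltf the C/EBP match overlaps a CCAAT match.
Mpo, chr11:87793534-87793783, plus strand: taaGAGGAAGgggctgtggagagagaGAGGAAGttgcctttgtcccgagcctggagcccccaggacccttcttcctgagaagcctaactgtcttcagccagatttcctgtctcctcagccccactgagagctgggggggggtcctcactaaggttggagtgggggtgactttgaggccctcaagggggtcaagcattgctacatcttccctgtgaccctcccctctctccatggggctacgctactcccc
Prtn3, chr10:79879417-79879666, plus strand: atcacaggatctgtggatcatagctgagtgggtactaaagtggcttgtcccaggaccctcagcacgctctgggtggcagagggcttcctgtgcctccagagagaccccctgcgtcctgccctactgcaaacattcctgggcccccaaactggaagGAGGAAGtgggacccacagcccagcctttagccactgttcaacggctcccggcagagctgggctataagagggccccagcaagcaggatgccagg
Ctsg, chr14:56102575-56102824, minus strand: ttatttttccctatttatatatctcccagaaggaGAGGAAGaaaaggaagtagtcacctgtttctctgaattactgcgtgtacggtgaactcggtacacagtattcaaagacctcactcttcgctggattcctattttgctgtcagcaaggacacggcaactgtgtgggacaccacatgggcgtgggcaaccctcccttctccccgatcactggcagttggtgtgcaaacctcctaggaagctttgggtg
Ltf, chr9:111019042-111019291, plus strand: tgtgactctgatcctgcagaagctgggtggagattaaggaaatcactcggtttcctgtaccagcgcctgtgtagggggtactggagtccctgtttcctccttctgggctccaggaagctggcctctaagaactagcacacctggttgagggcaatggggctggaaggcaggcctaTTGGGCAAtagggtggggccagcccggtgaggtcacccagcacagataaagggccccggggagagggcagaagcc
Ngp, chr9:110419558-110419807, plus strand: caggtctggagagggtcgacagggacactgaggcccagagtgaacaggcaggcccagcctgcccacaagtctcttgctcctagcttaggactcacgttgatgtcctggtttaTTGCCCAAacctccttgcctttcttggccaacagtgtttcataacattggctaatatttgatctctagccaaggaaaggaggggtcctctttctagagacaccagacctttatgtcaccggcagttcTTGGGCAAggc
Lcn2, chr2:32387740-32387989, minus strand: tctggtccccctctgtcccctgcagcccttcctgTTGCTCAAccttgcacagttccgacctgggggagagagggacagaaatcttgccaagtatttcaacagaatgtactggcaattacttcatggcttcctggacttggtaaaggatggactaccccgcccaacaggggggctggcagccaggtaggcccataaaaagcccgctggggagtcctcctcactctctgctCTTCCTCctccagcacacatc

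Elane, whose levels followed the primary members, also holds the PU.1 form, 1 match at position -85 from the start, and no C/EBP form. In Prtn3, the neighbour of Elane, the match begins at -95, and in Ngp the C/EBP matches begin at -138 and -11, counted from the start of the gene. Of the secondary genes, Camp, Ngp and Ltf all lie on chromosome 9, with 8 protein-coding genes between Camp and Ngp and 20 between Ngp and Ltf, and Mmp8 lies on the same chromosome. Chi3l3 (chromosome 3) and Lcn2 (chromosome 2) lie elsewhere and had the same direction in both populations.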

How the data were processed

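Total RNA (500 ng per sample, per the labels) was labelled with Cy3 and hybridised to Agilent 1-colour mouse arrays, 4 arrays of 1 sample each. The authors scanned them and, per the file headers, extracted spots with Agilent Feature Extraction version 10.5.1.1. The deposited spot signals are fluorescence intensity values, either raw or after the software took off background and a spatial trend, and deposited flag columns (unit: other) mark detection, saturation, outlier and control spots. Per the file headers, probes were designed against build mm9. The deposited series table holds log2 values that equal the log2 processed signal minus 1 constant per array within 0.001 for at least 99.977% of probes.

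Control and outlier spots were removed, spots of 1 probe were averaged as log2 processed signals, and each array's 75th percentile was subtracted. Each gene took the value of whichever of its probes had the highest 4-array mean. A difference was used where that probe was well above background on both arrays and not saturated on both. Gene names other than the members' were updated through RefSeq accessions (28136 of 40628 gene probes matched); probes for noncoding transcripts (20679) were left out.

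The rule for named genes was all 10 members, up to 4 genes with the largest difference from each of 4 pathway lists for each comparison of days, the 5 nearest profiles per class, and Ptprc, Kit, Ly6a and Elane. Padi4, Il1b, S100a8, S100a9, Epx, Prg2, Prg3, Mrc1, Fcnb, Bpi, Ptx3, Chi3l4, Jchain, Hba-a1, Alas2, Slc4a1, Cd79b and Cebpe in LSK cells were picked after their values were seen. Members, lists and motifs were chosen with earlier results of these data known. The alternatives were normexp (offset 50), quantile and cyclic loess normalization (limma 3.58.1 in R 4.3.3), shifts by the median, by probes detected on all arrays, by 10 housekeeping genes and by 5 spike-in probes, the series table, the mean of probes, and no filter. Scripts were tested on simulated data. Precision is limited by having 1 array per group, and labels do not say how many mice each holds.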

Additional observations from a re-analysis of the deposited data

Results flagged for a closer look

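Mmp9 differed in opposite directions in the sorts, -0.42 in LSK cells and 2.46 in CD45-negative cells from day 0 to day 10, a gap of 2.88 log2 units between the differences. With 1 array in each group this contrast was not tested. The LSK levels of Mmp9, -1.75 and -2.17, lay below the 75th percentile of their arrays, and its other probe was not well above background in LSK cells at day 0.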

How the results depend on the processing

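The spike-in shift moved the medians over the members most: to 4.73 for CD45-negative cells from day 0 to day 10, to -0.40 for LSK minus CD45-negative cells at day 0, and to -3.22 for the same at day 10, and it left 4 members at least 2-fold lower at day 0 in place of 7. Normexp gave -1.74 for LSK minus CD45-negative cells at day 0, and quantile normalization 1.73 for CD45-negative cells from day 0 to day 10. The count of members at least 2-fold higher at day 10 in CD45-negative cells, 7, was 10 under the spike-in shift and 5 under the housekeeping shift. All other medians and counts of members stayed within the spread of repeat spots or within 1.5 times. Of the single members' differences under the alternatives, 4 had the other sign, all in CD45-negative cells and of primary genes: Mpo, Prtn3 and Ctsg under the spike-in shift and Prtn3 under normexp. A spike-in shift moved the median of all genes to 3.45 for CD45-negative cells, so nearly all genes were higher there (99.0% of those past 2-fold, 57.5% in the main setting; 44.7% under the housekeeping shift). For LSK minus CD45-negative cells the share higher was 55.3% and 46.7% at day 0 and day 10, 95.3% and 0.912% under the spike-in shift, and 45.0% and 33.9% under a median shift. In LSK cells from day 0 to day 10 the share was 35.1%, and 15.8% under the spike-in shift. The share for LSK minus CD45-negative cells at day 10 was also 33.8% under cyclic loess and 60.4% under the housekeeping shift. Counts of genes at least 2-fold higher and lower in LSK cells, 237 and 439, were 73 and 152 under normexp, 127 and 679 under the spike-in shift, and 1454 and 1957 with no filter. In CD45-negative cells 3420 and 2523 became 13626 and 136 under the spike-in shift and 4810 and 10872 with no filter. For LSK minus CD45-negative cells at day 0, 3172 and 2567 became 11227 and 558 under the spike-in shift and 5277 and 5679 with no filter. At day 10, 1751 and 2001 became 116 and 12601, and 4847 and 2902, in that order, and 968 and 1468 under normexp. No paired analysis was possible because each group has 1 array. No replicate could be left out for the same reason. Saturation limits Mpo, and the medians of the classes were added to the alternatives after seeing the data.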

Other observations

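Ly6a, the gene of Sca-1, by which LSK cells are gated, stood at 2.98 and 2.86 in LSK cells and at 0.20 and 3.44 in CD45-negative cells. At day 10 its level in CD45-negative cells was thus above that in LSK cells. Bpi, an antibacterial protein of human primary granules, and Ptx3 were not above background on any array. Fcnb, a ficolin of neutrophil granules, went against its list in CD45-negative cells (-0.20) and with it in LSK cells (0.95). S100a8 was higher by 0.86 at day 10 in LSK cells. In CD45-negative cells its spot was saturated at day 10, so the measured difference of -0.79 is only a lower bound and gives no direction.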
